A study of Mus musculus with 6 samples.

Results

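Serpina3 genes encode clade A serpins, secreted or intracellular inhibitors that trap a protease when it cleaves their exposed reactive loop. Mice carry a cluster of such genes where humans carry the lone gene SERPINA3, which encodes α1-antichymotrypsin, a plasma inhibitor that liver cells release and make in larger amounts during inflammation. The mouse copies are near-identical in large stretches and differ most in the loop, so a short array probe named for a copy can also bind RNA of another copy.

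The livers came from male mice that were put on the diets at 12 weeks of age. The 3 control mice received 100% granulated regular food and the 3 soy mice received 75% of that food with 25% soy bean powder, each for 28 days. Each mouse gave 1 liver sample and 1 single-colour Agilent array, so the spread between arrays holds the spread between animals. Liver identity was clear on all 6 arrays, with albumin (Alb) at 19.00 ± 0.0151 in control and 18.86 ± 0.174 in soy livers and transthyretin (Ttr) at 18.02 ± 0.0623 and 18.08 ± 0.173 (normalised log2 signal, mean ± SD, n = 3). Gene spots well above background numbered 37010, 36366 and 38163 in the control livers, against 31308, 31988 and 32498 in the soy livers, so every soy array had fewer detected spots than every control array. The part of that difference in the results was not tested.

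The members were chosen by name from earlier results of these livers, for the higher signal of Serpina3f upon soy diet, and a probe counted as a member when the transcript it was designed for belonged to Serpina3c, Serpina3f, Serpina3g, Serpina3h, Serpina3i, Serpina3k, Serpina3m or Serpina3n. Of these 8 genes, 7 had a probe, which gave 9 of the 56605 probes on the array, 2 each for Serpina3f and Serpina3i and 1 each for the other 5. Serpina3g, an intracellular inhibitor of cathepsins, is not analysed here on the expression side. Because the diet difference itself chose the members, their values upon soy diet are a description and carry no p-value. The probe sequences were not used here, and binding of a probe to more than 1 copy was not tested.

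RefSeq gives a window around the start for 5 of the members (GRCm38.p6, 250 bases before and 50 bases after each start), and Serpina3f has 2 starts that lie 89 bases apart. The stretches below show how close the upstream sequences of the copies are, and 90 bases of each are printed 5′ to 3′ on the strand of the gene. Capitals mark 9 bases that read TTCNNNGAA in Serpina3f, Serpina3g and Serpina3i, the letters of a GAS element, the kind of site that STAT factors bind. For Serpina3c and Serpina3n the capitals mark the aligned 9 bases.
Serpina3f, chr12:104214363-104214452, + strand: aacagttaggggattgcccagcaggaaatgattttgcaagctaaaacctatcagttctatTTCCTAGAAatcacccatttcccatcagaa
Serpina3g, chr12:104236054-104236143, + strand: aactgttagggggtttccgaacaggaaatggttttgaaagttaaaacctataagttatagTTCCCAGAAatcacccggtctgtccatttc
Serpina3i, chr12:104262960-104263049, + strand: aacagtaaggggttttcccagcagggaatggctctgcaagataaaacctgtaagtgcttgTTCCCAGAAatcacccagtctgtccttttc
Serpina3c, chr12:104153963-104154052, - strand: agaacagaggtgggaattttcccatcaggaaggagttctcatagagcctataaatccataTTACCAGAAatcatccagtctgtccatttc
Serpina3n, chr12:104406525-104406614, + strand: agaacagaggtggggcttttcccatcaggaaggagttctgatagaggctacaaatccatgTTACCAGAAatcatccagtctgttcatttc

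The Serpina3c and Serpina3n stretches were identical at 92.2% of their 90 bases and Serpina3g and Serpina3i at 82.2%. Serpina3f matched Serpina3g at 72.2%, Serpina3i at 71.1% and Serpina3c at 38.9%, all compared without gaps. A gained or lost base shifts the bases before it out of register, so 38.9% can understate the likeness to Serpina3c. An alignment with gaps was not run. In Serpina3f the capitals begin 121 bases before the first start, against 33 in Serpina3g and 102 in Serpina3i. The letters TTCNNNGAA, which read the same on both strands, stood in windows of 3 of the 5 members, once in each gene, and in 8.3% of all 32851 promoter windows of the same length. AGAACA, letters found in sites of the glucocorticoid receptor, stood in windows of 4 of the 5 members and in 19.0% of all windows (both strands). A match of letters is a description and not a bound site.

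Serpina3f was the member whose signal stood apart upon soy diet, on 1 of its 2 probes. Its brighter probe (A_55_P2142226, here probe 1) read 9.06, 9.13 and 8.84 in control and 10.59, 10.74 and 11.03 in soy livers (normalised log2 signal). Every soy array lay above every control array. The soy mean was 1.78 higher on the log2 scale (SE 0.142), which is 3.43-fold. Before normalisation the median signals of the spot were 633, 565 and 441 in control and 1500, 1456 and 2087 in soy livers, so the gap was present in the scanner values too. The difference was 1.5 within the slide that held control 1, control 2 and soy 1, and 2.19 within the slide that held control 3 and soy 3. Soy 2 was alone on its slide.

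The other Serpina3f probe (A_55_P2104975, probe 2), designed for the same transcript, read 8.76, 9.04 and 8.94 in control and 8.52, 8.56 and 8.78 in soy livers. The groups overlapped, and the soy mean differed by -0.29 on the log2 scale (SE 0.121), opposite in sign to probe 1. Both probes were well above background on all 6 arrays. Across the 6 arrays their Pearson correlation was -0.709, a description over 6 points that share the diet groups. Averaged over both probes the Serpina3f difference was 0.74, so the value of the gene rests on the choice of probe. Which copy or isoform each probe reads was not tested.

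**Figure D1:**
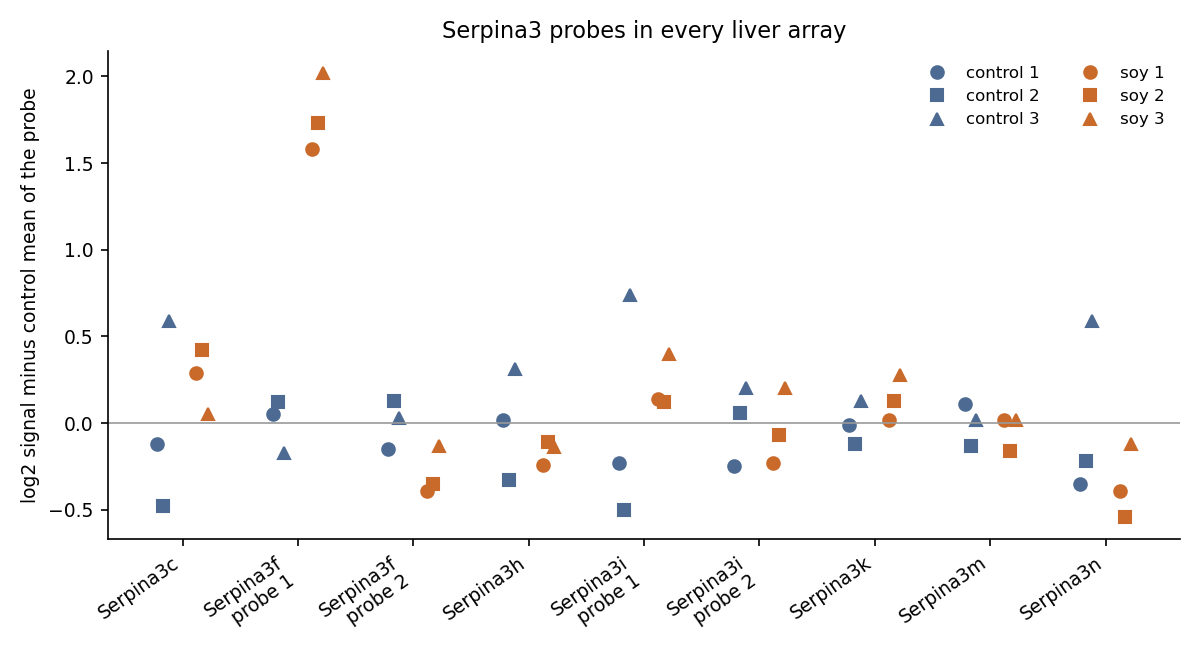
Normalised log2 signal of each of the 9 Serpina3 probes on each array, minus the mean of the 3 control arrays for that probe (y axis), with control arrays in blue and soy arrays in orange. The soy arrays of Serpina3f probe 1 lie 1.78 above the control mean on average, and for the other 8 probes the groups overlap.

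By the threshold used across the array (limma, Benjamini-Hochberg adjusted p under 0.05 with a fold above 1.5 or under 0.66), 1 of the 9 member probes passed, against 0.350% of all probes, and 0.208% of all probes passed as higher in soy. With the slide as a block 0 member probes passed, at a Serpina3f probe 1 difference of 1.79, and by the mean over all probes of a gene 0 members passed. The groups did not overlap for 1 of the 9 member probes, against 18.0% of all probes. Since the rule used this contrast, nothing is read from these counts. The mean soy signal was higher for 4 member probes and lower for 5, among them the dimmer Serpina3i probe, which was above background on 1 array alone, and the median difference was -0.0398 on the log2 scale, beside -0.0103 over all probes.

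The members that encode abundant liver serpins had similar signals on both diets. Serpina3k, the kallikrein-binding serpin of mouse plasma, read 18.42, 18.31 and 18.56 in control and 18.45, 18.56 and 18.71 in soy livers, a difference of 0.14 (SE 0.115). Serpina3m read 19.14, 18.90 and 19.05 in control and 19.05, 18.87 and 19.05 in soy livers, a difference of -0.0398 (SE 0.109). The groups overlapped for both. The Serpina3m signals reached at most 76.7% of the scanner's saturation value, and no member spot was marked as saturated.

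Serpina3n, an extracellular inhibitor of granzyme B and a widely used marker of the acute phase response and of reactive astrocytes, read 14.09, 14.22 and 15.03 in control and 14.05, 13.90 and 14.32 in soy livers. The difference was -0.35 (SE 0.247), control 3 was the highest of all 6 arrays, and the difference was -0.0613 without it and -0.537 without control 1. Within slides the difference was -0.10 on the slide with soy 1 and -0.71 on the slide with soy 3. Serpina3c read 16.66, 16.30 and 17.37 in control and 17.07, 17.20 and 16.83 in soy livers, a difference of 0.26 (SE 0.256), and here too control 3 was the highest array. It was 0.0223 without control 2 and 0.548 without control 3. The Serpina3c difference was 0.59 within the slide of soy 1 and -0.54 within that of soy 3, so its sign turned with the slide.

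Serpina3h, a transcribed pseudogene, read 14.83, 14.48 and 15.12 in control and 14.57, 14.70 and 14.67 in soy livers, a difference of -0.16 (SE 0.162) that was -0.323 without control 2 and -0.00904 without control 3. The brighter Serpina3i probe read 9.41, 9.14 and 10.38 in control and 9.78, 9.76 and 10.04 in soy livers, a difference of 0.22 (SE 0.295) that was 0.51 within the slide of soy 1 and -0.35 within that of soy 3. The dimmer Serpina3i probe was well above background on 1 control array and on none of the soy arrays, so its soy signal is a bound only. Compared without gaps, the Serpina3i stretch upstream of the start is among the closest to that of Serpina3f. The signals of the brighter Serpina3i probe overlapped between the diets.

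Spread between animals differed among the members. The SD over the control arrays ranged from 0.12 for Serpina3m to 0.655 for the brighter Serpina3i probe, and the SD over the soy arrays from 0.0668 for Serpina3h to 0.223 for Serpina3f probe 1. Control 3 was the highest control array for 6 of the 9 member probes, and for 35.8% of the 32376 probes detected in every liver of at least 1 diet. The Serpina3f difference on probe 1 ranged from 1.65 to 1.88 when each array was left out in turn.

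By a rule of likeness over the 6 arrays, Pearson's r of each gene's brightest probe with Serpina3f probe 1 among 15099 detected genes outside the members, the closest were Gss (r = 0.9981), Acss3 (0.9973), Iqce (0.9970), Snx24 (0.9957) and Tfrc (0.9937). With 6 points in 2 diet groups such values mostly describe a shared diet difference, and the order of the livers within a diet was not the same in all 5 genes. Snx24, which encodes a sorting nexin of the endosome system, read 9.88, 9.84 and 9.81 in control and 10.74, 10.73 and 10.89 in soy livers. Tfrc, the transferrin receptor that takes up iron, read 9.51, 9.77 and 9.45 in control and 10.69, 10.71 and 11.02 in soy livers. Its groups did not overlap.
Tfrc was 1.23 higher on the log2 scale in soy livers (SE 0.136, limma adjusted p = 0.0218) and Snx24 was 0.94 higher (SE 0.0955, limma adjusted p = 0.0164). The differences for Gss (0.45), which encodes glutathione synthetase, Acss3 (0.60) and Iqce (0.61) did not pass, with limma adjusted p of 0.115, 0.0576 and 0.0531. Acss3 and Iqce passed under the 75th percentile shift (limma adjusted p of 0.0298 and 0.0437). They also passed on probes well above background alone (0.0335 and 0.0302) and on the processed signal (0.00201 and 0.00438). Averaged over all probes of a gene, their differences were 0.32 and 0.287. Tfrc did not pass without control 1 or without any of the soy arrays (limma adjusted p of 0.064 to 0.0846), and was at 0.135 with the slide as a block. Snx24 did not pass without control 2 or without any of the soy arrays (0.0627 to 0.0711), and was at 0.118 with the slide as a block. These genes were picked for their likeness to a gene that was itself picked for its diet difference.

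**Figure D2:**
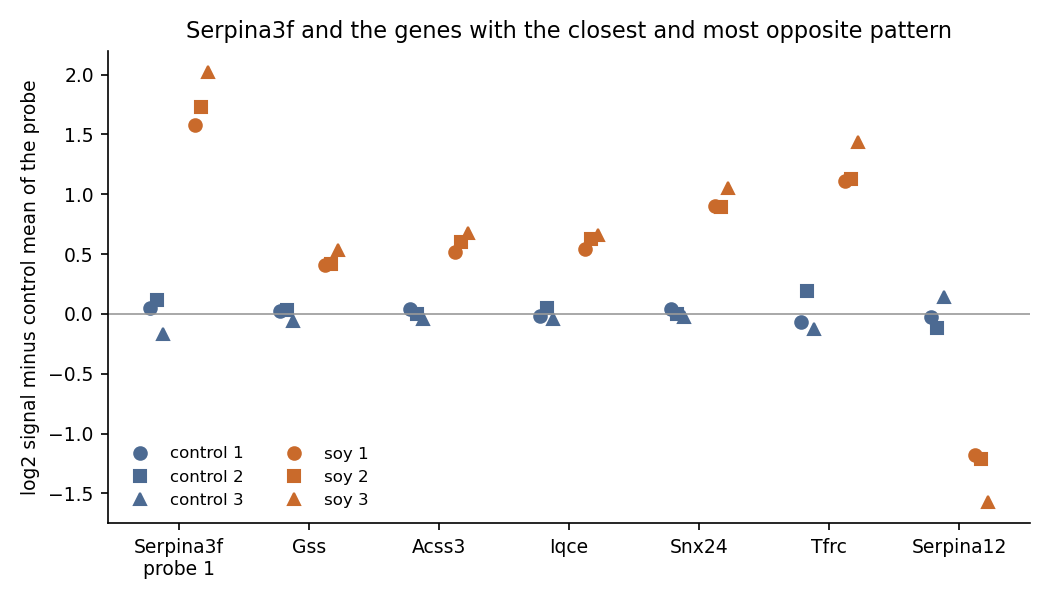
Normalised log2 signal minus the control mean of the probe (y axis) on each array for Serpina3f probe 1, the 5 genes with the closest pattern and Serpina12, the gene with the most opposite pattern. Soy 3 lies farthest from the control arrays for Serpina3f probe 1, with a difference of 2.19 within its slide, and the soy 3 point of Serpina12 was not well above background.

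The most opposite of the 15099 genes was another clade A serpin, Serpina12, with r = -0.9981. Serpina12 encodes vaspin, an adipokine that inhibits a kallikrein. It read 8.59, 8.50 and 8.76 in control and 7.44, 7.41 and 7.05 in soy livers, with no overlap. Serpina12 fell by 1.32 on the log2 scale upon soy diet (SE 0.138, limma adjusted p = 0.0178), and it was well above background on 2 of the 3 soy arrays. Its soy 3 signal is a bound only, and on the scanner's processed signal the difference was -1.98. It passed without control 2 or without control 3, while its limma adjusted p was 0.0539 without control 1 and 0.0631, 0.0712 and 0.0523 without soy 1, soy 2 and soy 3. With the slide as a block it was 0.126 at a difference of -1.36.

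Of the 17 clade A serpins measured outside the members, Serpina12 was the only one to pass (1 lower, 0 higher), against 0.458% of the 22911 genes taken by their brightest probe. The median over the 17 was -0.00434, beside -0.00567 over all genes. The groups did not overlap for 7 of the 17, against 20.5% of all genes, and 7 had an unadjusted p under 0.05 (limma), against 14.2% of all genes. Serpina7, thyroxine-binding globulin, read 8.61, 8.43 and 8.44 in control and 9.67, 9.36 and 10.32 in soy livers. Its difference was 1.29 (SE 0.227) without overlap and did not pass (limma adjusted p = 0.076). Serpina7 passed under the 75th percentile shift (limma adjusted p = 0.0485), on probes well above background alone (0.0395) and on the processed signal (0.012). On the processed signal of detected probes alone it was at 0.063, and with the slide as a block at 0.135.
The genes nearest the members by name were Serpina3a, Serpina3b and Serpina3j. Serpina3b differed by 0.47 (SE 0.111, limma adjusted p = 0.159) and Serpina3j by 0.0624 (SE 0.199, limma adjusted p = 0.932). Serpina3a was not well above background on any control array and was so on 2 soy arrays. Its brightest probe was 1.63-fold higher in soy livers, with a limma adjusted p of 0.124. The fold compares the soy mean with the higher of the probe's own signal and the lowest detected signal on each control array. It was the same without that floor, so it is an estimate and not a lower bound. Over the alternatives the log2 difference of this probe ran from 0.512 to 3.15. Dimmer Serpina3a probes were 1.51-fold higher, well above background on 1 soy array, and 1.18-fold higher, well above background on no array. The groups overlapped for the dimmest.

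**Figure D3:**
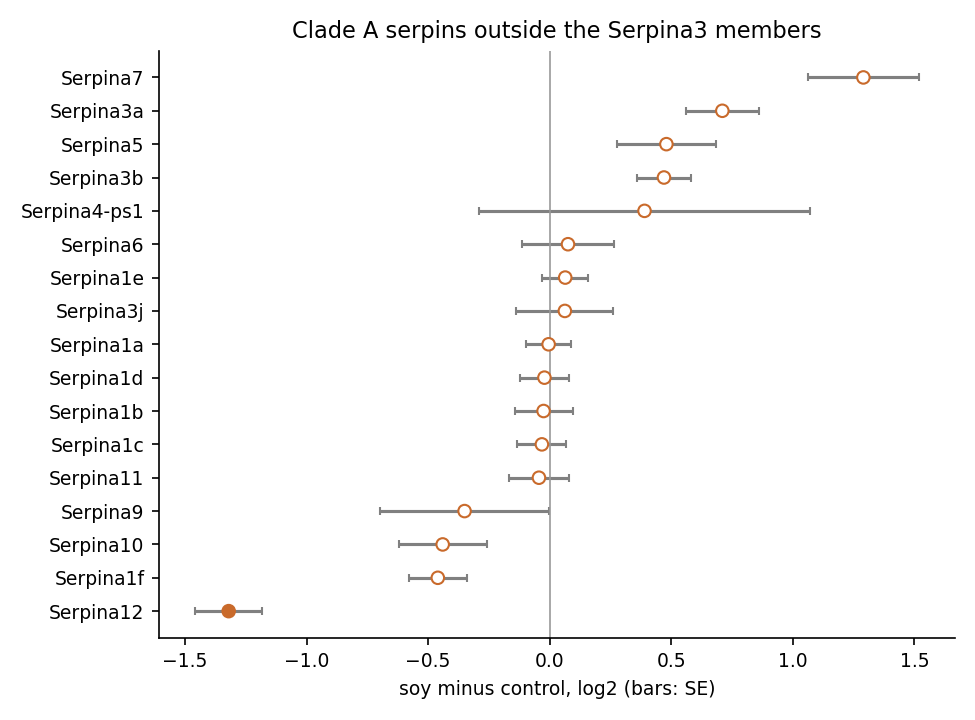
Difference between soy and control livers (log2, x axis) with its SE for each of the 17 clade A serpins outside the members, 1 probe a gene; filled points passed the threshold. Serpina12 at -1.32 is the only filled point, and Serpina7 at 1.29 lies farthest to the right.

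The 5 expressed α1-antitrypsin genes Serpina1a to Serpina1e, which encode the main plasma inhibitor of neutrophil elastase, differed by between -0.032 and 0.0639 on their brightest probes, with limma adjusted p of 0.84 or more. A dimmer probe of Serpina1a differed by -0.18 (limma adjusted p = 0.583) and of Serpina1e by -0.13 (0.735). Serpina6, corticosteroid-binding globulin, differed by 0.0753 and Serpina11 by -0.0441. Serpina1f (-0.46), Serpina10 (-0.44), which encodes an inhibitor of coagulation factor X, and Serpina5 (0.48), which encodes the protein C inhibitor, had groups that did not overlap and did not pass, with limma adjusted p of 0.184, 0.418 and 0.421. When each array was left out in turn, Serpina1f ranged from -0.537 to -0.386, Serpina10 from -0.556 to -0.235 and Serpina5 from 0.252 to 0.64. Serpina9 differed by -0.35 (SE 0.347). Serpina4-ps1 read 10.81, 10.45 and 13.40 in control and 12.02, 11.93 and 11.90 in soy livers, so that control 3 alone set its control spread. Its difference was 0.39 (SE 0.681, limma adjusted p = 0.868), and without control 3 it was 1.32 and passed (limma adjusted p = 0.0326). Among 14 serpins of other clades made in liver or found in plasma, 0 passed and the median was -0.253, with 11 of 14 lower in soy livers. The groups did not overlap for 7 of the 14, against 20.5% of all genes, and 6 had an unadjusted p under 0.05 (limma), against 14.2%. Serpinb8 (-0.89) and Serpinb9 (-0.72) had groups that did not overlap, with limma adjusted p of 0.141 and 0.0907.

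Serpina3 genes are known targets of inflammatory, interferon and glucocorticoid signalling, and lists of those pathways were set beside them. Of 27 acute phase genes 0 passed, with a median of -0.0104 and 13 higher against 14 lower. Saa4, an apolipoprotein of the serum amyloid A family, was at -0.84, Lbp, which binds bacterial lipopolysaccharide, at -0.55, and Il1rn, the IL-1 receptor antagonist, at -0.45, with limma adjusted p of 0.163, 0.246 and 0.238. Il1rn was well above background on 2 of the 3 soy arrays, so its soy level is a bound only. Its difference ran from -1.0 to -0.278 over the alternatives. The soy livers differed widely among themselves in some acute phase genes, named here after their values were seen. The serum amyloid gene Saa1 read 16.43, 17.14 and 16.63 in control and 13.99, 16.16 and 18.19 in soy livers, and Saa2 read 13.89, 16.25 and 18.30 in soy livers. Lcn2, a siderophore-binding protein, read 9.71, 11.29 and 13.44 in soy livers, Orm3, of the orosomucoid family, 8.77, 9.31 and 12.42, and Saa3 11.66, 12.57 and 13.57. In all 5 genes soy 1 was the lowest and soy 3 the highest soy liver, with soy 2 between them. Serpina3f probe 1 had that order, and so did probe 2 (8.52, 8.56 and 8.78), whose soy mean was lower than its control mean. Serpina3n did not have it (14.05, 13.90 and 14.32). A link between Serpina3f and the acute phase genes was not tested. The groups overlapped in each of the 5 genes, with Saa3 at a difference of 1.20 (limma adjusted p = 0.372). That order of the 3 soy livers held for 16 of the 27 acute phase genes and for 18.3% of all genes, while Saa4, Lbp and haptoglobin (Hp) did not have it. In the IL-6 and STAT3 list 0 of 15 passed, the median was -0.631 and 12 of 15 were lower in soy livers. Lifr, a receptor of leukaemia inhibitory factor, was at -0.86 (limma adjusted p = 0.0531), the IL-1 receptor Il1r1 at -1.32 (0.0805) and Junb at -0.94 (0.178). Within the slides of soy 1 and soy 3, Lifr (-0.71 and -1.07), Il1r1 (-1.51 and -0.84) and Junb (-1.15 and -0.4) were lower on both. Other genes of the list turned sign with the slide, among them Socs3 (-1.57 and 0.97) and Bcl3 (-0.94 and 0.22).
In the glucocorticoid list 0 of 12 passed, the median was -0.77 and 10 of 12 were lower. Pck1, the enzyme that starts gluconeogenesis from oxaloacetate, was at -0.84 (limma adjusted p = 0.0576), the receptor cochaperone Fkbp5 at -1.18 (0.146) and the transcription factor Zbtb16 at -1.70 (0.153). Within the slides of soy 1 and soy 3, Pck1 (-0.75 and -0.69), Fkbp5 (-1.07 and -0.89) and Zbtb16 (-1.61 and -0.82) were lower on both. Some genes of the list turned sign with the slide, among them Tsc22d3 (-1.14 and 0.5). Without control 3 Zbtb16 was at -2.14 and passed (limma adjusted p = 0.0495). Over the 19 alternatives run, Pck1 passed in 6, Zbtb16 in 2 and Fkbp5 in 1. Over the same alternatives Lifr passed in 5, Il1r1 in 2 and Junb in 1. At an unadjusted p under 0.05 (limma) the acute phase, IL-6 and STAT3 and glucocorticoid lists held 7 of 27, 7 of 15 and 6 of 12 genes, beside 14.2% of all 22911 genes. Groups did not overlap for 20.5% of all genes, and for 4 acute phase, 6 IL-6 and STAT3 and 3 glucocorticoid genes.

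The interferon list had 0 of 26 genes past the threshold and a median of -0.223, with Usp18, which restrains interferon receptor signalling, at -1.09 (limma adjusted p = 0.111), and the interferon regulatory factors Irf9 at -0.61 (0.181) and Irf7 at -0.48 (0.415). The NF-kB list had 0 of 15 and a median of -0.186, with Tnfaip2 at 1.25 (0.107), the adhesion molecule Vcam1 at -1.03 (0.194) and the NF-kB subunit Rela at -0.21 (0.493). The growth hormone and STAT5 list, which holds sex-biased liver genes, had 0 of 20 and a median of -0.0227, with Igf1 at -0.26 (0.346), while Sult2a1 was not above background on any array. Of 9 proteases that Serpina3 proteins are known to inhibit 0 passed and the median was -0.196, with the kallikrein Klk1 at -0.53 (0.178) and cathepsin L (Ctsl) at -0.52 (0.231). At an unadjusted p under 0.05 these 4 lists held 7 of 26, 3 of 15, 1 of 20 and 2 of 9 genes, beside the same 14.2% of all genes.

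**Figure D4:**
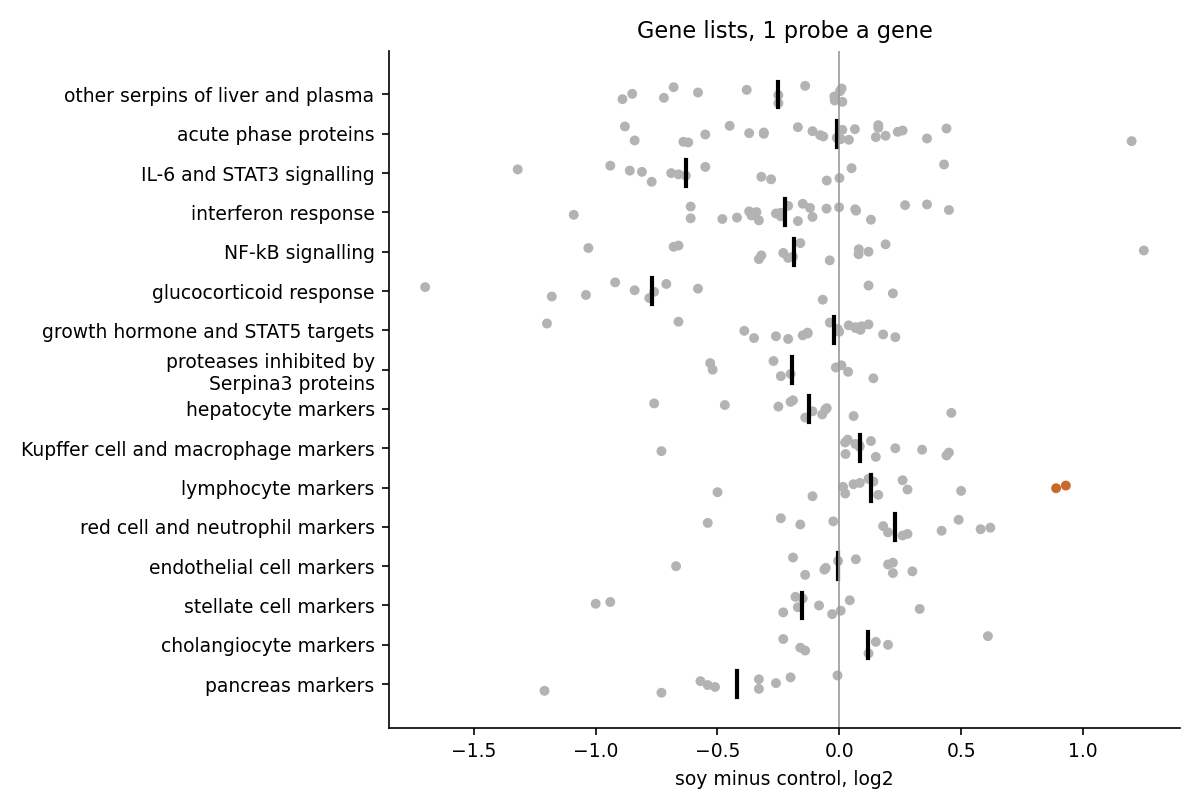
Difference between soy and control livers (log2, x axis) for each gene of 16 lists (y axis), 1 probe a gene; black bars are list medians and orange points passed the threshold. The 2 orange points are lymphocyte markers, the farther right of them Ms4a1 at 0.93, and the glucocorticoid list has the lowest median at -0.77.

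Markers of other cells that a liver sample can hold were read in the same way. Of 14 lymphocyte markers 2 passed, both higher in soy livers, against 0.458% of all genes, and the median was 0.131. An unadjusted p under 0.05 (limma) was found for 5 of the 14, against 14.2% of all genes, and the groups did not overlap for 6, against 20.5%. Among them Ms4a1, which encodes the B cell protein CD20, was 0.93 higher (SE 0.127, limma adjusted p = 0.0394). The B cell receptor component Cd79a was well above background on 2 control arrays and on none of the soy arrays, so its soy level is a bound only. Cd2 differed by 0.50 without overlap and did not pass (limma adjusted p = 0.106). Leaving out any of the 6 arrays left Ms4a1 short of the threshold, with differences of 0.844 to 1.04 and limma adjusted p of 0.075 to 0.14. Ms4a1 was well above background on 2 of the 3 control arrays and on all soy arrays, and its difference was 2.5 on the scanner's processed signal. The summed linear signal of the 14 was 68803, 69824 and 82219 in control and 64166, 55532 and 45074 in soy livers, most of it Cd4 (-0.50), and the defining markers Cd8a and Klrb1c were not above background on any array. The part of B cell RNA in the Serpina3f difference was not tested. In bulk liver, more cells of a type and more RNA per cell cannot be told apart.
For the other cell types 0 genes passed (limma), with unadjusted p under 0.05 for 3 of 12 hepatocyte, 0 of 13 macrophage, 2 of 12 red cell and neutrophil, 0 of 11 endothelial, 3 of 11 stellate, 1 of 7 cholangiocyte and 4 of 10 pancreas markers, beside 14.2% of all genes. The medians were -0.123, 0.0832, 0.229, -0.00505, -0.152, 0.117 and -0.419. Differences without overlap included the urea cycle enzyme Cps1 (-0.47, limma adjusted p = 0.178) and prothrombin F2 (-0.20, 0.507) in hepatocytes, the neutrophil genes Camp (-0.54, 0.325) and Retnlg (0.49, 0.305), Clec4g (0.20, 0.546) of sinusoidal endothelium, the collagens Col1a1 (-1.0, 0.318) and Col3a1 (-0.94, 0.271), and the pancreatic enzymes Cela2a (-1.21, 0.0724), Cela1 (-0.73, 0.191) and Ctrb1 (-0.26, 0.473). Retnlg was well above background on 2 of the 3 control arrays, so its control level is a bound only. Its difference reached 1.47 under an alternative. Mpo and Krt7 were well above background on all control arrays and on none of the soy arrays, and the sign of their differences turned under a 75th percentile shift (limma adjusted p of 0.596 and 0.641 as normalised here). Of the 10 pancreas markers 4 were well above background on all 6 arrays, 5 on 2 or 3 control arrays and on none of the soy arrays, and Ins2 on none. Their summed signal, most of it the elastase Cela1, was 36903, 53093 and 44205 in control and 27467, 32466 and 24495 in soy livers.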

How the data were processed

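Total RNA of 3 control and 3 soy livers was labelled with Cy3 and hybridised on Agilent mouse arrays. The authors deposited the scanner intensity of each spot from Agilent Feature Extraction 11.5.1.1, and a table of log2 values whose columns have medians of 7.33 to 7.34 and track the log2 median signals (r of 0.9992 to 0.9998). The log2 table was used as an alternative. How its values were normalised is not given in the sources used here. They differed from the values normalised here by at most 0.0705 on any spot, and 196 probes passed with them, against 198. This alternative is therefore close to a repeat of the main run.

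Median signals were background corrected (normexp, offset 50), quantile normalised and put on the log2 scale, outlier spots were left out and spots of a probe were averaged. The 56605 probes were fitted with limma 3.58.1 in R 4.3.3, soy against control, with Benjamini-Hochberg adjustment over all probes. The same fit was also run on simulated data with planted changes, and the outcome is not given here. Symbols came from RefSeq through the accession of each probe (58.3% of probes matched), and a gene was read by its brightest probe. Named were all members and clade A serpins, the genes of other lists that passed (at most 5), filled to 3 with the largest changes without overlap, and the genes most like Serpina3f (a few of these genes are not reported here); likeness to Serpina3g was not run, since no probe was matched to it. The members and lists were chosen with earlier results of these data known. The number of arrays, 3 a group, limits the precision. No column of per-sample values was left unmapped.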

Additional observations from a re-analysis of the deposited data

How the results depend on the processing

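The difference of Serpina3f probe 1 was positive under every alternative run, from 1.5 to 2.19, both within a slide, and the mean over both Serpina3f probes was 0.741. The count of member probes past the threshold was 1 except with the slide as a block, where it was 0 at a difference of 1.79, and for the mean over both probes, where it was 0. The deviations of same-numbered arrays correlated at 0.103, -0.0546 and 0.102, against -0.191 to 0.0977 for the other pairs of a control and a soy array. Control 1 and soy 1 shared a slide, as did control 3 and soy 3, so number and slide cannot be told apart there. These values do not decide whether replicate numbers pair the samples. With the number as a block 78 probes passed in place of 198, with 0 clade A serpins and 0 list genes, and 1 member probe.

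The count of probes past the threshold was 25 with the slide as a block (0 clade A serpins, 0 list genes), 77 with offset 16 (0 list genes), 299 with a 75th percentile shift (2 and 4), 290 with a trended, robust prior (4 list genes), 497 on probes above background alone (2 and 7) and 13138 on the processed signal (5 and 19). Of those 13138, 11156 were not above background on any array, where the processed signal sits on a floor that was higher in soy (10th percentile -6.48 to -6.35) than in control arrays (-7.70 to -7.35). On detected probes alone, added after seeing the data, 364 passed. Leaving out single arrays gave 26 to 208 probes, 0 to 2 clade A serpins and 0 to 2 list genes, with the lowest probe count without soy 2.

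Of the 5 genes closest to Serpina3f, 3 were shared under the 75th percentile shift and 0 on the processed signal. Signs that turned belonged to differences that did not pass. Among the members Serpina3m (-0.0398) became 0.0484 under the 75th percentile shift, 0.0892 under cyclic loess, 0.0398 on the processed signal and 0.0166 with the slide as a block. The sign of the dimmer Serpina3i probe also turned, but that probe was above background on 1 array alone and its values carry no direction. Leaving out single arrays gave Serpina3m -0.108 to 0.0142 and the brighter Serpina3i probe -0.0375 to 0.586. Outside the members, under the 75th percentile shift the turned signs were Serpina1a 0.0894, Serpina1b 0.0495, Serpina3j -0.0442, Mpo 0.0626 and Krt7 0.0807. Under cyclic loess they were Serpina1a 0.13, Serpina1b 0.0904, Serpina1c 0.0373, Serpina3j -0.0158 and Alb 0.0327. On the processed signal, with all or detected probes, they were Serpina1a 0.099, Serpina1b 0.0974, Serpina1c 0.0162, Serpina3j -0.0596 and Alb 0.00756. With the slide as a block they were Serpina1c 0.0342 and Serpina3j -0.0139, and over all probes of a gene Serpina1e -0.032 and Ttr -0.168. Leaving out single arrays gave Serpina1a -0.0427 to 0.0196, Serpina1b -0.116 to 0.0263, Serpina1c -0.0704 to 0.0218, Serpina1d -0.0878 to 0.0282, Serpina3j -0.0604 to 0.287, Serpina4-ps1 -0.163 (without control 2) to 1.32 (without control 3), Serpina6 -0.11 to 0.221, Serpina9 -0.632 to 0.087 and Serpina11 -0.14 to 0.05. Where no value is given beside it, the cause was not tested.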
